A study of Mus musculus with 5 samples.

Results

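C1q-high macrophages were 53 of the 493 filtered cells of a lung library sorted for C12FDG, a β-galactosidase substrate that becomes fluorescent when the enzyme cleaves it. They were chosen on measured values: barcodes with over 700 and under 8000 genes and under 5% of counts from mitochondrial features were kept, and a cell was a member if C1qa, C1qb and C1qc together reached 1000 CPM of that cell (CPM, counts scaled to a total of 1000000) and fewer than 3 of 6 cell cycle genes (Mki67, Top2a, Birc5, Cenpf, Nusap1, Ube2c) were detected. All mice were C57BL/6J and were exposed as newborns. The sorted cells came from mice kept in over 95% O2 for 3 days and then in air until postnatal day (pnd) 7, with the lung suspensions of 3 mice pooled before the sort. The other libraries were unsorted whole-lung cells: 3 days of air and 3 days of hyperoxia, each taken at pnd7 and at pnd60. Each of these 5 conditions had 1 library, so no difference has a replicate check, no p-value is given, and the intervals below cover counting error alone. A sorted library from mice kept in air was not analysed here, and β-galactosidase activity is high in many macrophages as well as in senescent cells, so the gate sets which cells, and how many of each kind, were available. The same rule found 25 cells in air and 16 after hyperoxia among unsorted pnd7 cells, and 73 and 62 at pnd60, out of 13200 filtered cells in the series.

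C1q is the recognition molecule that starts the classical complement pathway, and its 3 chains are made mainly by tissue macrophages. In the lung, macrophages of the interstitium and vessels carry C1q and Apoe transcripts, while alveolar macrophages in the airspaces carry Chil3, Ear2, Marco, Car4 and a lipid-handling program. Both kinds take up dead cells and particles and degrade them in lysosomes, where β-galactosidase also acts.

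The sorted library held 569 barcodes and 8006284 counts of unique molecular identifiers (UMIs), and the 53 members held 606645 of them, from 1438 to 25529 UMIs per cell with a median of 11804 and a median of 3107 genes. The median of the other 440 sorted cells was 15957.5 UMIs. C1q-high cells made up 10.8% of filtered sorted cells (exact binomial 95% interval 8.16 to 13.8%). Their share was 1.28% (0.736 to 2.08%) of unsorted hyperoxia cells and 1.08% (0.702 to 1.60%) of unsorted air cells at pnd7. The sorted library shared no cell barcode with the others, which shared 5 to 7 with each other per pair. The median share of mitochondrial counts was 0.758% in members and 0.607% in the other sorted cells.

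Of the 5 markers listed for this kind of macrophage, C1qa, C1qb and C1qc are the genes of the rule and check nothing. Ms4a7, a membrane protein of interstitial macrophages, was at 956 CPM in members and 21.9 CPM in the other sorted cells, and 40 of 53 members had a UMI of it (75.5%, exact binomial interval 61.7 to 86.2%), compared with 12.7% of the other sorted cells. The last, Pf4, was at 0 counts in C1q-high cells of all 5 libraries, where a further copy of the gene in the feature list can take its reads, so it could not be read. At least 3 of 7 general macrophage genes, Csf1r, Cd68, Adgre1 and Tyrobp among them, were detected in 52 of 53 members, with all 7 in 31. The 7 markers of T and NK cells, the 6 of mast cells and basophils and the 5 of platelets were all at 0 in members, while dendritic cell markers summed to 14.8 CPM and erythroid markers to 14.8 CPM.

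The population was not uniform at its lower edge. The 3 members nearest the threshold had 1086, 1250 and 1295 CPM of C1q, from 2, 4 and 2 counts, and the 3 non-dividing cells just outside it had 813, 799.7 and 787.7 CPM, from 1, 9 and 4 counts. In 13 members, 6 alveolar macrophage genes (Chil3, Ear1, Ear2, Marco, Krt79, Plet1) also reached 1000 CPM. Of these 13 cells, 11 had under 5000 UMIs, their median was 2831 UMIs, and they held 12.2% of the members' counts. The other 40 members had a median of 13031 UMIs and 8020 CPM of C1q, and 29 of them had none of the 6 alveolar genes.

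**Figure D1:**
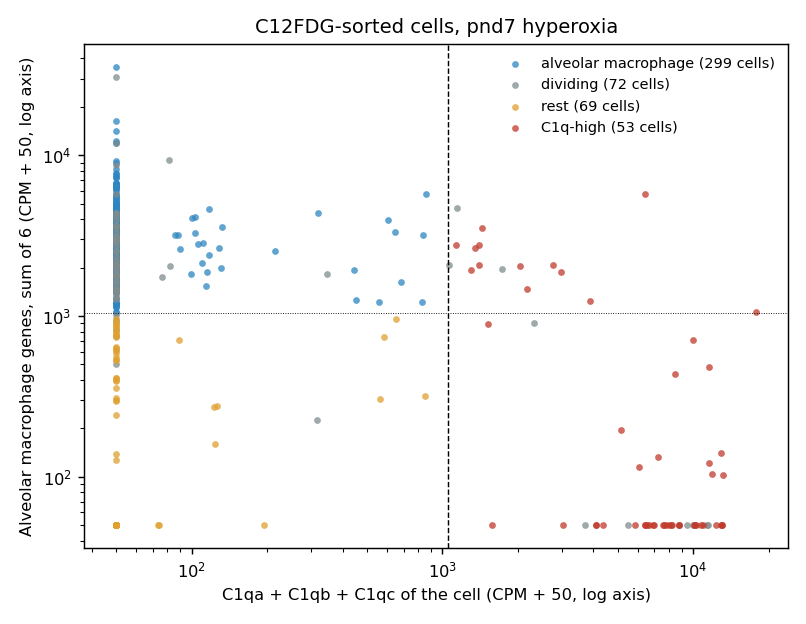
Each point is 1 cell of the sorted library; the x axis is its summed C1qa, C1qb and C1qc level and the y axis its summed level of 6 alveolar macrophage genes, both in CPM plus 50 on log axes, coloured by class. Most of the 53 members lie along the bottom right, and 13 lie above 1000 CPM of the alveolar genes.

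These 13 and 40 members differed in several genes that the rule did not use; the split was chosen after the values were seen and carries no test. Mt1, a metallothionein that binds zinc and copper, had a median of 16955 CPM in the 13 and 1288 CPM in the 40. Ccl6, a chemokine of alveolar macrophages, had medians of 3532 and 0 CPM. Apoe, the apolipoprotein that carries lipid out of macrophages, ran the other way, at 3659 and 17985 CPM. Ferritin heavy chain (Fth1) was at 34607 and 33158 CPM, so the 2 sets were close for ferritin. The part of free RNA or of 2 cells in 1 droplet in these mixed profiles was not tested; Scrublet called 15 of 528 scored sorted barcodes doublets, 2 of them members.

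Against the other 440 sorted cells, of which 299 were alveolar macrophages by the 6 genes above, 72 dividing cells and 69 the rest, summed counts gave 6799 genes with at least 100 counts over both classes. Of these, 7.82% were higher in members by at least 2-fold and 16.9% were lower, with a median log2 ratio of -0.17. Higher genes made 31.7% of those past 2-fold, and 43.5% when the classes were scaled by the median ratio. Because the members were chosen from these same cells by C1q, this comparison is a description and supports nothing further. A gene can reach 100 counts through the class where it is high alone, so counts over the measured genes of a list describe those genes and not the whole list. Over all listed genes with a count in either class, measured or not and with 0 set at the floor of 3 counts, the median log2 ratio was 2.67 for resident macrophage identity, 0.44 for complement, 0.34 for scavenger and efferocytosis, 0.56 for lysosomal genes, 2.00 for CC and 0.00 for CXC chemokines, 1.29 for the NF-κB response, 1.11 for immediate early genes, 0.07 for p53 targets and -0.21 for antioxidant genes. Where 1 class had 0 counts and the floor gave a ratio pointing towards that class, the ratio was set to 0. Such genes enter these medians, and a median of 0.00 does not show level expression. Of the 8 CXC chemokines with a count, 3 had ratios above 0 and 3 below. The resident macrophage identity list had 12 of 16 measured genes higher by at least 2-fold and 0 lower. Apoe was at 20477 against 512 CPM, a log2 ratio of 5.32 (interval 5.27 to 5.37), and 50 of 53 members reached 1000 CPM of it against 25 of 299 sorted alveolar macrophages. Csf1r, the receptor that keeps macrophages alive, was at 631 against 89.2 CPM (log2 ratio 2.82). Selenop, a secreted selenium carrier, was at 1146 against 130.5 CPM (log2 ratio 3.13). Cd14, a co-receptor for bacterial lipopolysaccharide, was at 1525 against 196 CPM (log2 ratio 2.96). Some general macrophage genes were level between the classes. Tyrobp, a phagocyte adaptor, was at 1640 against 1759 CPM (log2 ratio -0.10). Cd68, a lysosomal glycoprotein, was at 389 against 339.7 CPM (log2 ratio 0.20). Across members the lowest, median and highest Apoe level was 305, 16844 and 75150 CPM, and every member had a count of it.

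The 12 genes with the highest ratio, by a rule on size alone, were Cd5l, Prg4, Ednrb, C1qc, C1qa, C1qb, Ms4a7, Apoe, Spic, Plau, Ccl24 and Fcrls, from 4.64 to 10.59 on the log2 scale. Spic, a transcription factor of macrophages that recycle iron, was at 191 against 5.22 CPM and had a UMI in 24 of 53 members, against 2.5% of other sorted cells. Ednrb, an endothelin receptor, was at 201 against 2.2 CPM. Plau, the urokinase plasminogen activator, was at 302 against 9.62 CPM. Cd5l, an inhibitor of apoptosis secreted by macrophages, rested on 1 cell: 113 of its 129 counts, and 127 of 155 counts of the scavenger receptor Marco, were in a single member of 24105 UMIs that Scrublet did not call a doublet. Prg4, a lubricant proteoglycan, had 52 of 133 counts in another cell. The 12 lowest were Cd200r4, Ccdc80, Ly75, Ube2c, Col3a1, Plet1, Tlr8, Nt5e, Car4, Phlda3, Plpp3 and Bst1, and they include Car4, a carbonic anhydrase of alveolar macrophages, at 13.2 against 367 CPM. Plpp3, a lipid phosphatase, had no count in members and was at least 26-fold lower, set against a floor of 3 counts over the members.

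Both measured genes of the 12 in the MHC class II list were higher. In the class I list 2 of 9 genes were measured, B2m, the invariant light chain, at 1541 against 966 CPM, a log2 ratio of 0.67 (interval 0.57 to 0.77) and so within 2-fold, and Psmb9, an immunoproteasome subunit, at 13.2 against 29.3 CPM, from 8 counts in members. The list summed to 1571 CPM in members and 999.9 CPM in other sorted cells, with 6 of its genes at 0 in members and 7 of the 9 having a further copy in the feature list, so the 2 lists cannot be set against each other. Cd74, the chaperone of MHC class II molecules, was at 4433 against 528 CPM (log2 ratio 3.07). Cd86, a costimulator of T cells, was at 331 against 21.4 CPM (log2 ratio 3.95). The class II chains H2-Aa, H2-Ab1 and H2-Eb1 have a further copy in the feature list and hold too few counts to read. In the complement list, 5 of 9 measured genes were higher and 2 lower. The anaphylatoxin receptors C3ar1 and C5ar1 were at 582 against 27.6 CPM and 358 against 69.98 CPM, and properdin, Cfp, which stabilises the alternative pathway convertase, at 414 against 88 CPM. The lower ones were C3 itself, at 16.5 against 42.1 CPM, and the integrin chain Itgb2, at 153 against 412 CPM. The scavenger and efferocytosis list was split, with 5 of 21 higher and 6 lower. Stab1, a clearance receptor, was at 152 against 7.7 CPM. Gas6, a bridge to dying cells, was at 114 against 8.11 CPM. The receptor kinases that bind Gas6 differed the other way, Mertk at 46.2 against 182 CPM and Axl at 117 against 258 CPM.

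Single lysosomal genes differed in both directions. Of 32 measured lysosomal genes, 8 were higher and 3 lower, where 7.82% of all measured genes were higher and 16.9% lower. Cathepsins B and L were higher, Ctsb at 4447 against 1123 CPM (log2 ratio 1.99) and Ctsl at 1935 against 468 CPM (log2 ratio 2.05), as was legumain, Lgmn, an asparaginyl protease, at 1451 against 214 CPM (log2 ratio 2.76). Cathepsin D (Ctsd) was lower at 1498 against 3638 CPM (log2 ratio -1.28), and so were the acid lipase Lipa at 338 against 797 CPM and the proton pump subunit Atp6v0d2 at 41.2 against 625 CPM. Glb1, the gene of the β-galactosidase that C12FDG reports, had only 15 counts in members and was at 24.7 against 15 CPM.

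Several chemokine genes were higher in members. Cxcl2, which attracts neutrophils, was at 7520 against 1648 CPM (log2 ratio 2.19), and the lowest, median and highest member were at 0, 2102 and 42435 CPM. Its close relative Cxcl1 was at 379 against 82.1 CPM (log2 ratio 2.21). Of 4 measured CXC chemokines 3 were higher and 1 lower, and of 8 CC chemokines 5 were higher and 2 lower. Ccl3 and Ccl4, which attract monocytes and T cells, were at 1368 against 342 CPM and 1342 against 125 CPM, and Ccl4 reached 1000 CPM in 18 of 53 members but in 4 of 299 sorted alveolar macrophages. Ccl24 was at 349.5 against 13.3 CPM, with 93 of 212 counts in 1 member. Ccl6 was lower, at 448 against 5258 CPM. The interleukin genes Il1b and Il18 were also lower, at 13.2 against 79.2 CPM and 29.7 against 281 CPM, and Il1a was level at 114 against 118 CPM.

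Genes that NF-κB, a transcription factor of inflammation, can induce were also higher. In the NF-κB response list 11 of 19 measured genes were higher by at least 2-fold and 1 was lower. Nfkbia, the inhibitor that NF-κB induces against itself, was at 809 against 364 CPM (log2 ratio 1.15). Zfp36, an RNA-destabilising protein, was at 989 against 199.5 CPM (log2 ratio 2.31). Socs3, a brake on cytokine signals, was at 125 against 16.2 CPM (log2 ratio 2.95). Ier3, a survival gene with a further copy in the feature list, was at 2006 against 150.3 CPM. Tnfaip2 was the gene lower by 2-fold, at 453 against 1066 CPM. The promoters of Cxcl2, Cxcl1 and Nfkbia are shown because these 3 genes carried the κB letters near the start and were higher; they are a selection, since Cxcl3, with no count in members, and Nfkb2, at 82.4 against 30.7 CPM, also matched and are not printed. All 3 are from RefSeq, build GRCm38.p6, 140 bases ending at the base before the annotated start, 5′ to 3′ on the gene's strand, with the κB match (GGGA, any base, then TTTCC, on either strand) in capitals.
Cxcl2 (chr5:90903759-90903898, plus strand): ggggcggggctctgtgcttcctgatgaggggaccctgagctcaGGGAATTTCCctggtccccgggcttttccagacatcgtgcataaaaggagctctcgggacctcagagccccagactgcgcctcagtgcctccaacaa
Cxcl1 (chr5:90891105-90891244, plus strand): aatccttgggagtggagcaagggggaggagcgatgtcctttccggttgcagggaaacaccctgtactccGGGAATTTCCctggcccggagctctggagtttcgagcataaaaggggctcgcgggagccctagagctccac
Nfkbia (chr12:55492648-55492787, minus strand): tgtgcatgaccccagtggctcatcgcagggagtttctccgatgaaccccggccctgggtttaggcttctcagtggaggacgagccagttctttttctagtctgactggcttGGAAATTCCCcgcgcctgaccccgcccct
Searched over the 250 bases before each start, the same letters were in 0.356% of 32851 RefSeq mouse promoters. They were in 3 of the 9 CXC chemokine genes with a promoter in the table and in 2 of 17 NF-κB response genes. Counted by promoter, as in the share of all promoters, these were 3 of 9 and 2 of 21. The matches begin 97 bases before the start in Cxcl2 and 71 bases before it in Cxcl1, and in Nfkbia the match is on the opposite strand. A match is a description of sequence, not of binding.

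Immediate early genes, which respond within minutes to stimulation and also to tissue dissociation and sorting, were higher in 9 of 16 measured cases, with none lower. Junb, a subunit of the AP-1 factor, was at 3343 against 406 CPM (log2 ratio 3.04) and reached 1000 CPM in 43 of 53 members and 17 of 299 sorted alveolar macrophages. Egr1, a growth response factor, was at 557 against 57.6 CPM (log2 ratio 3.27). Atf3, a stress-induced repressor, was at 2008 against 441 CPM (log2 ratio 2.19), and reached 1000 CPM in 38 members and 14 alveolar macrophages. Fos was at 551 against 141 CPM (log2 ratio 1.97). The sort and the handling were shared by members and other sorted cells, and the part of handling in these levels was not tested.

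Genes of the alveolar program were lower in members. Of the 12 alveolar macrophage markers, 10 were lower by at least 2-fold, and their summed level was 1189 CPM in members, of which the mannose receptor Mrc1 made 685.7 CPM, against 4061 CPM in the other sorted cells. The 6 genes that classed 299 of those cells as alveolar macrophages are on this list, so the class rule fixed part of the difference. Lpl, which releases fatty acids from lipoproteins, was at 134 against 1735 CPM (log2 ratio -3.70). Abcg1, a cholesterol exporter, was at 112 against 478 CPM (log2 ratio -2.09). Its partner Abca1 was higher, at 361 against 60.8 CPM (log2 ratio 2.57). Metallothioneins were lower, Mt1 at 2623 against 14849 CPM (log2 ratio -2.50) and Mt2 at 354 against 2415 CPM, and so were the peroxidase Prdx1 at 2575 against 5521 CPM and the cystine transporter Slc7a11 at 198 against 699.8 CPM. Antioxidant genes were lower in 6 of 15 measured cases and higher in none. Hmox1, the heme oxygenase, was level at 7645 against 7418 CPM, a log2 ratio of 0.04 (interval 0.00 to 0.09), and Fth1 was at 33890 against 41282 CPM (log2 ratio -0.28). Against the sorted alveolar macrophages alone, a class made by its own 6 genes, 5465 genes were measured, of which 8.97% were higher and 14.6% lower by at least 2-fold. By that comparison Apoe had a log2 ratio of 6.79, Cxcl2 2.78, Mt1 -2.61 and Hmox1 -0.05, and 4 of 10 p53 targets were higher and 2 lower. Of 16 NF-κB response genes, 10 were higher and 1 lower.

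**Figure D2:**
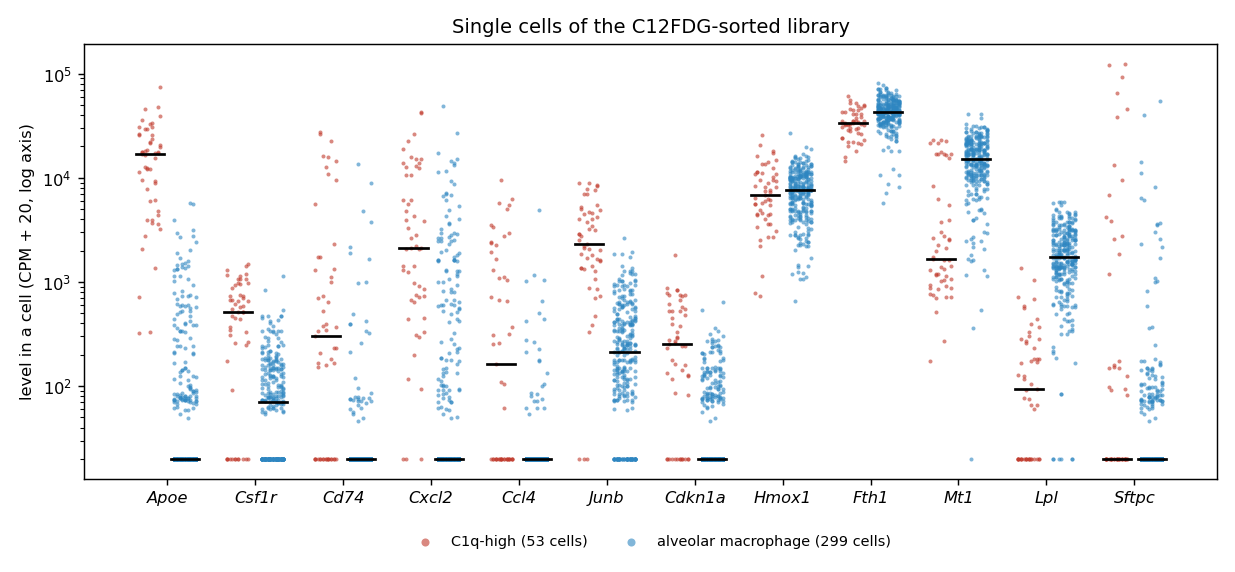
Level of 12 genes in single cells of the sorted library, in CPM plus 20 on a log axis; points are the 53 members and the 299 sorted alveolar macrophages, and black bars are medians. Apoe and Junb are shifted up in members, Mt1 and Lpl down, and Hmox1 and Fth1 overlap.

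Cell cycle arrest genes were examined because the sort was meant to enrich senescent cells. Cdkn1a, which encodes p21, was at 348 against 90.2 CPM (log2 ratio 1.95); it has a further copy in the feature list, so its level may be too low. A UMI of it was found in 40 of 53 members, and in 19 of 48 members thinned to 2000 UMIs, against 46 of 422 other sorted cells thinned likewise (39.6 and 10.9%). A second random draw of the same depth gave 47.9 and 15.9%, so these shares move by several points with the draw. Plk2, another p53 target, was at 448 against 78.9 CPM (log2 ratio 2.51). Mdm2, the ligase that degrades p53, was at 544 against 276 CPM (log2 ratio 0.98). Of 14 measured p53 targets, 6 were higher and 2 lower, the latter being Phlda3 and Plk3. Gdf15, a stress cytokine, was level at 712 against 771 CPM (log2 ratio -0.11). Among the genes of the senescence-associated secretory phenotype (SASP) that the study listed on these samples, 7 of 17 were higher and 4 lower, with a median of -0.01. This list also holds Cdkn1a, Plaur and B2m, which the study named as senescence biomarkers, so Cdkn1a counts here and among the p53 targets. The list is not independent of these cells. Mmp14, a membrane collagenase, was at 179.7 against 24.5 CPM. Mmp12, the macrophage elastase, was at 366 against 495 CPM. The other cyclin-dependent kinase inhibitor genes were low: Cdkn2a had 1 count in members and Cdkn1b was at 56 against 49.8 CPM.

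Growth and matrix factors were mixed. Thbs1, an activator of latent TGF-β, was at 1167 against 92.5 CPM (log2 ratio 3.66), but 219 of 708 counts were in 1 member. Igf1, Pdgfa and Pdgfb, growth factors for fibroblasts and epithelium, were at 329.7 against 43.4 CPM, 239 against 32.2 CPM and 264 against 17.7 CPM. The phosphoprotein Spp1 was lower, at 300 against 910.4 CPM, with 95 of its 182 member counts in 1 cell.

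**Figure D3:**
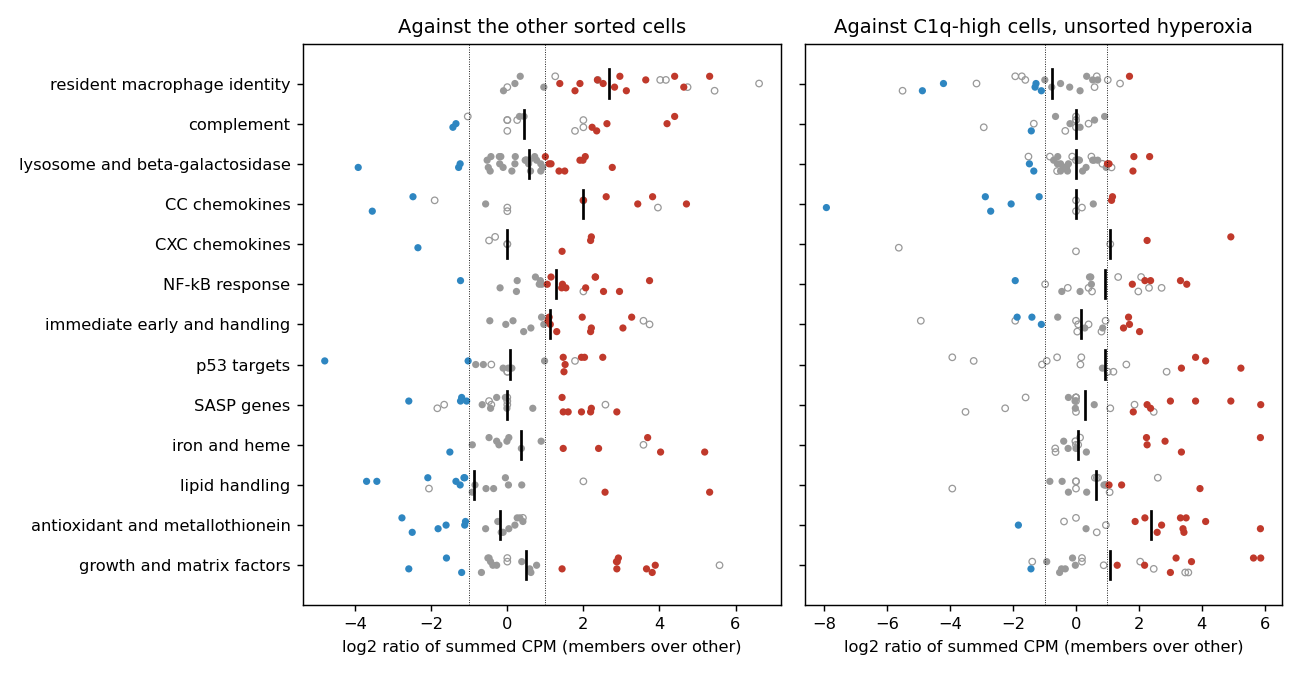
Log2 ratio of summed CPM for each gene of 13 lists with a count in either class, members over the other sorted cells on the left and over C1q-high cells of the unsorted hyperoxia library on the right; filled dots reached 100 counts, with those past 2-fold in red or blue, open dots did not, and black bars are medians over both. The median of the resident macrophage list lies above 0 on the left and below 0 on the right, that of the antioxidant list just below 0 on the left and above 2 on the right, and that of the iron list near 0 on the right.

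Members also differed among themselves, most of all in a few genes. After thinning 48 members to 2000 UMIs, the median ratio of variance to mean over genes with a mean of at least 0.5 was 1.31, where counting noise alone gives about 1. Sftpc, the surfactant protein C gene of alveolar type II cells, had the highest ratio at 165, followed by Cd74 at 28.6, Cxcl2 at 27.1, Sftpa1 at 26.2, Apoe at 22.4 and Mt1 at 19.4. Cd74 was at 1000 CPM or more in 16 members, and its lowest, median and highest member were at 0, 284 and 27702 CPM. Cxcl2 reached 1000 CPM in 34 members and Ccl4 in 18, and both did in 15. Cd74 and Cxcl2 reached it together in 8 members, and Cd74 and Ccl4 in 4. Markers of perivascular and self-renewing resident macrophages were found in few cells: Folr2 in 14, Lyve1 in 6 and Timd4 in 6 of 53, with Folr2 detected in all 6 Lyve1-positive cells.

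Sftpc needs a separate account, since it marks another cell type. Its summed level was 10827 CPM in members, 53807 CPM in the 69 unclassed sorted cells and 131 CPM in sorted alveolar macrophages. A single member of 25529 UMIs held 3113 of 6568 Sftpc counts and 459 of 729 Sftpa1 counts, with 76 counts of C1q and all 7 macrophage genes. In 7 members Sftpc exceeded 10000 CPM. The 8 type II markers summed to 12459 CPM in members, and all 8 had a count. Sftpc counts per Sftpa1 count were 9.01 in members, 28.1 in sorted alveolar macrophages, 59.1 in dividing cells and 24.2 in the rest. Scrublet called none of the 6 members with the most Sftpc doublets, and the part of free RNA or of a second cell in these counts was not tested. Among members with at least 5000 CPM of C1q the log2 ratio of Sftpc to unsorted hyperoxia cells was -2.18, where all members gave 5.85.

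The C1q-high cells of the unsorted hyperoxia lungs were the same rule applied to the same exposure and age. That library had 16 such cells and 159685 counts in them, so 1183 genes were measured; 23.2% were higher in sorted members by at least 2-fold and 7.44% were lower, with a median log2 ratio of 0.21. Higher genes made 75.7% of those past 2-fold, 60.1% at a minimum of 30 counts and 36.8% at a minimum of 1 count, so the balance depended on which genes were compared. Sort, library and depth cannot be told apart in this comparison, and the rule did not use it. The members held more counts than the unsorted class, so genes high in members reached the minimum of 100 more easily, and lists are given over all their genes. The floor of 3 counts is a higher CPM in the unsorted class. A gene at 0 in members was thus more readily placed below 0 than a gene at 0 in unsorted cells above it. In the iron and heme list 9 of 15 genes reached the minimum, 2 of them on the members' level alone (at the unsorted level they would have missed it), and 8 of the 15 genes with a count in either class had ratios above 0 and 5 below, with a median of 0.07. Hmox1 was at 7645 against 132 CPM, a log2 ratio of 5.86 (interval 5.25 to 6.55). A UMI of Hmox1 was found in all 53 members and in 47 of 48 thinned members, against 4 of 14 thinned unsorted cells. Fth1 was at 33890 against 4759 CPM (log2 ratio 2.83). Ftl1, the ferritin light chain, was at 5389 against 1127 CPM (log2 ratio 2.26). Over all libraries, Hmox1 in C1q-high cells was at 7645 CPM in the sorted library, 132 CPM after hyperoxia and 299.9 CPM in air at pnd7, and 164 CPM after hyperoxia and 106 CPM in air at pnd60; the sorted library was highest, and its interval (7427 to 7869 CPM) did not meet any other. Within the sorted library the lowest, median and highest member were at 714, 6803 and 25827 CPM.

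In the antioxidant list 12 of 16 genes reached the minimum, 7 of them on the members' level alone, and 13 of the 16 genes with a count in either class had ratios above 0 and 2 below, with a median of 2.38; the 4 genes under the minimum had a median of 0.33. Txnrd1, which recycles thioredoxin, was at 539 against 50.1 CPM (log2 ratio 3.43). Gclm, the modifier subunit of glutathione synthesis, was at 414 against 62.6 CPM (log2 ratio 2.72). Prdx1, a peroxidase, was at 2575 against 701.4 CPM (log2 ratio 1.88). Srxn1 and Slc7a11 had no count in the 16 unsorted cells and were at least 10-fold and 10.5-fold higher against a floor of 3 counts. Gpx1, a glutathione peroxidase, was lower at 404 against 1434 CPM (log2 ratio -1.83). In 5 of the 13 antioxidant genes with a promoter in the table, the window held TGACNNNGC, the core of an antioxidant response element, on either strand; the same letters were in 10.2% of all promoters. Those of Gclm and Prdx1 are a selection: both genes were higher in this comparison, but so was Txnrd1. Txnrd1, Mt2 and Sod1 also matched and are not printed. The 2 printed have the match in capitals, again RefSeq GRCm38.p6 and 140 bases ending before the start.
Gclm (chr3:122245417-122245556, plus strand): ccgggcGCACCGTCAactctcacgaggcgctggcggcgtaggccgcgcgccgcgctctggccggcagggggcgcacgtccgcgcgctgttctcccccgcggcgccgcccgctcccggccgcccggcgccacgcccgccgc
Prdx1 (chr4:116685459-116685598, plus strand): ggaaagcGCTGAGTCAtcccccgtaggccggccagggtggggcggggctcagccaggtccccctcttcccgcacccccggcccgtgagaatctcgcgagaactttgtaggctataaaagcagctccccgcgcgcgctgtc
The match starts 134 bases before the start in Gclm and 133 bases before it in Prdx1, and a match does not show that a factor was bound.

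**Figure D4:**
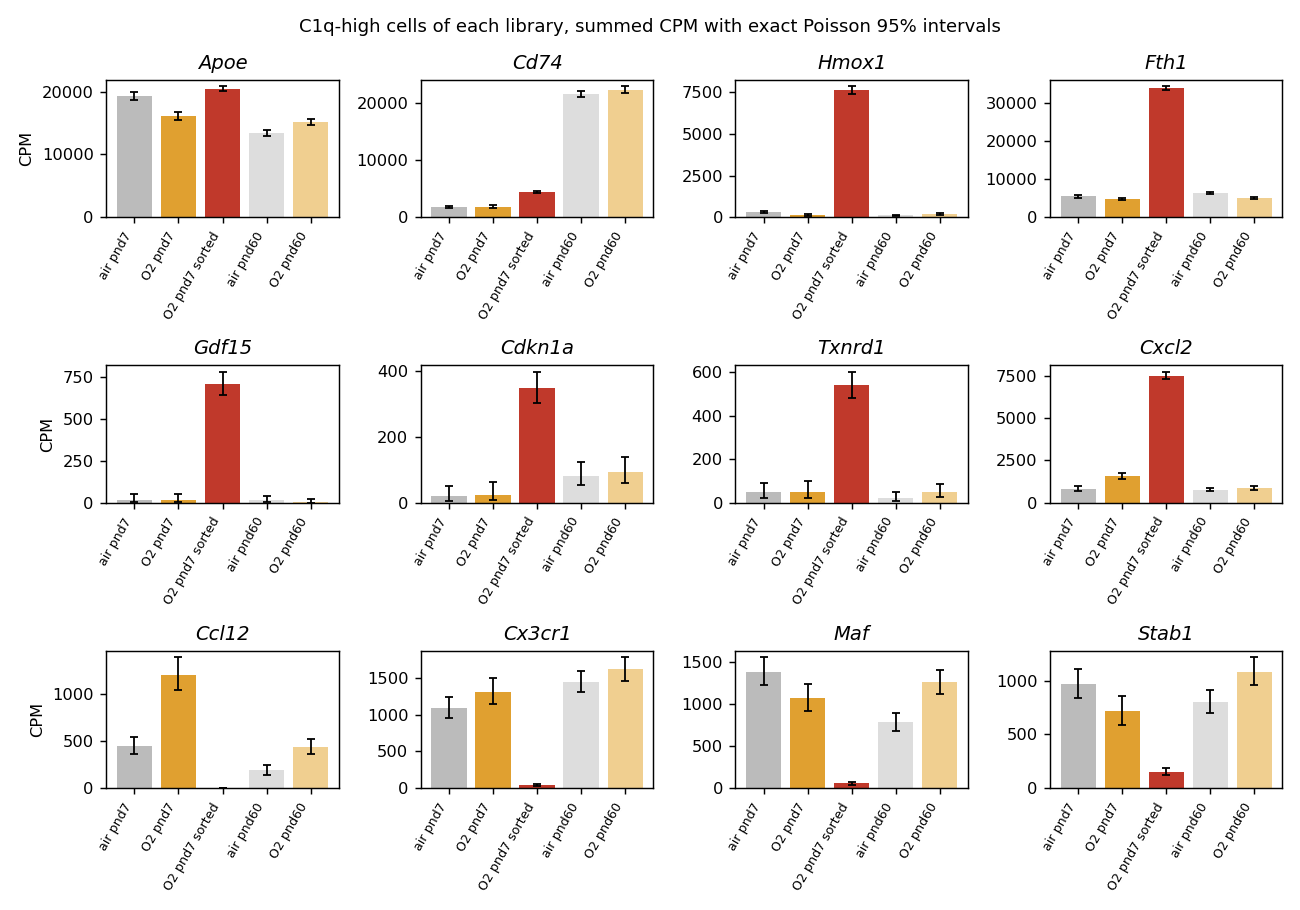
Summed CPM of 12 genes in the C1q-high cells of the 5 libraries, 1 bar per library from 0, with exact Poisson 95% intervals as error bars. Hmox1, Fth1, Gdf15, Cdkn1a and Txnrd1 are highest in the sorted library, and Cx3cr1 and Maf are lowest there.

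Single p53 target genes were higher. Cdkn1a was at 348 CPM in the sorted library, 25.1 CPM after hyperoxia and 19.4 CPM in air at pnd7, and 93.7 CPM after hyperoxia and 82.4 CPM in air at pnd60, so the sorted library had the highest level of the 5, and its log2 ratio over unsorted hyperoxia was 3.80 (interval 2.42 to 5.68). Mdm2 was at 544 against 31.3 CPM (log2 ratio 4.12). Plk2 was at 448 against 43.8 CPM (log2 ratio 3.35). Gdf15 was at 712 against 18.8 CPM, from 3 unsorted counts, a log2 ratio of 5.24 (interval 3.69 to 7.53). After thinning, Cdkn1a was found in 19 of 48 members and Mdm2 in 27, and neither was found in the 14 unsorted hyperoxia cells. Without the unsorted cell that held the most counts of each gene, the unsorted hyperoxia level was 13.6 CPM for Cdkn1a and 27.7 CPM for Txnrd1, and the 3 Gdf15 counts were all in 1 cell. In the p53 target list 5 of 18 genes reached the minimum, 4 of them on the members' level alone, and 11 of the 16 genes with a count in either class had ratios above 0 and 5 below, with a median of 0.93; the 11 under the minimum had a median of 0.14. Sesn1, a p53 target that limits growth signals, had 8 counts in members and 20 in unsorted cells, a log2 ratio of -3.25, and Ccng1, a cyclin, was at 0.14. Sqstm1, a receptor for selective autophagy, had a log2 ratio of 4.08, and Lgals3, the lectin galectin-3 that marks damaged lysosomes, was at 4073 against 81.4 CPM (log2 ratio 5.64), with 76.9% of its 13 unsorted counts in 1 cell. The SASP list also holds the senescence biomarkers named above, so Cdkn1a counts in both lists. In the SASP list 11 of 25 genes reached the minimum, 6 of them on the members' level alone, and 11 of the 22 genes with a count in either class had ratios above 0 and 6 below, with a median of 0.29. Among the measured ones was Cxcr4, the receptor of Cxcl12, at 501 against 62.6 CPM. Cxcl2 was at 7520 against 1566 CPM, and 52.4% of its unsorted counts were in 1 cell. The measured CC chemokines were mixed, with 5 of 8 lower and 2 higher. Of all 11 with a count, 4 had ratios above 0 and 5 below. Their median was 0.00, with ratios set to 0 where the floor gave no direction. Ccl2 and Ccl7, which attract monocytes, were lower at 394 against 889 CPM and 143 against 1058 CPM, and Ccl6 at 448 against 2925 CPM, but 1 unsorted cell held 93.4% of the Ccl6 counts and 1 held 54.9% of those of Ccl2. Without the leading cell the unsorted levels were 223 CPM for Ccl6, 447 CPM for Ccl2 and 699 CPM for Ccl7, and with each class's leading cell left out Ccl6 turned to a log2 ratio of 0.86. Ccl3 was higher at 1368 against 626 CPM, with 46% of its unsorted counts in 1 cell. The scavenger and efferocytosis list had 5 of 9 measured genes lower and 1 higher, and over all of it 8 of the 23 genes with a count in either class had ratios above 0 and 15 below, with a median of -0.60. Cxcl1 had 2 unsorted counts, a log2 ratio of 4.92 (interval 3.05 to 7.97), and Mmp12 had 1, a ratio of 5.87 (interval 3.38 to 11.18).

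Of 14 measured identity genes of tissue macrophages, 5 were lower and 1 higher, and over the list 9 of the 23 genes with a count in either class had ratios above 0 and 14 below, with a median of -0.77. Cx3cr1, the fractalkine receptor, was at 44.5 CPM in the sorted library, 1309 CPM after hyperoxia and 1088 CPM in air at pnd7, and 1612 CPM after hyperoxia and 1443 CPM in air at pnd60, and the sorted library was the lowest of the 5. Its log2 ratio over unsorted hyperoxia was -4.88 (interval -5.51 to -4.30), and a UMI was found in 3 of 48 thinned members and in 10 of 14 thinned unsorted cells. Maf, a transcription factor of tissue macrophages, was at 57.7 against 1071 CPM (log2 ratio -4.21). Mef2c, another transcription factor, was at 59.3 against 639 CPM (log2 ratio -3.43). The scavenger receptor Stab1 was at 152 against 714 CPM (log2 ratio -2.23). Ccl12, a monocyte chemokine, had no count in members and 1202 CPM in unsorted cells, at least 243-fold lower against a floor of 3 counts over the members, although 53.1% of the unsorted counts came from 1 cell. Apoe was close, at 20477 against 16125 CPM (log2 ratio 0.34). Fos, Jun and Dusp1 were lower by log2 ratios of -1.87, -1.10 and -1.40, whereas Junb, Egr1 and Atf3 were higher by 1.51, 1.67 and 2.02. Egr1 had 28 unsorted counts, of which 1 cell held 67.9%, and its unsorted level was 175 CPM with that cell and 61.4 CPM without it.

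Red cell transcripts stood apart in the unsorted class. The erythroid markers summed to 93666 CPM in the 16 unsorted hyperoxia cells and to 15883 CPM in the 25 air cells, against 14.8 CPM in members, and 98.7% of Hbb-bs, a β-globin gene, was in 1 of the 16 cells. Counts of genes past 2-fold with hemoglobin and surfactant genes taken out of the totals stayed within 1.5 times those above.

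The same sorted against unsorted contrast could be set beside that in alveolar macrophages, for which 265 sorted and 40 unsorted hyperoxia cells passed a stricter rule, with a count in at least 2 of 5 alveolar genes and in at least 3 of the 7 macrophage genes. Both contrasts use the same pair of libraries. In alveolar macrophages the log2 ratio of Hmox1 was 3.46 (8161 against 742 CPM) and that of Mt1 4.02 (16767 against 1032 CPM). That of Gdf15 was 3.58, of Txnrd1 2.23 and of Sqstm1 3.05. Cdkn1a was lower in sorted alveolar macrophages, at -0.99 (48.1 against 95.8 CPM), and higher in sorted C1q-high cells. The unsorted alveolar class also held more transcripts of other cell types: type II markers summed to 6020 CPM against 148 CPM in the sorted class, airway markers to 660.3 against 4.39 CPM, type I markers to 496 against 55 CPM and erythroid markers to 2250 against 11.8 CPM. Their part in these ratios was not tested. Id2, a repressor of differentiation factors, was at -0.04 in alveolar macrophages and 4.42 in C1q-high cells, where 1 unsorted cell held 41.7% of its 12 unsorted counts. The difference between these ratios was not tested, since each class has 1 library a side.

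**Figure D5:**
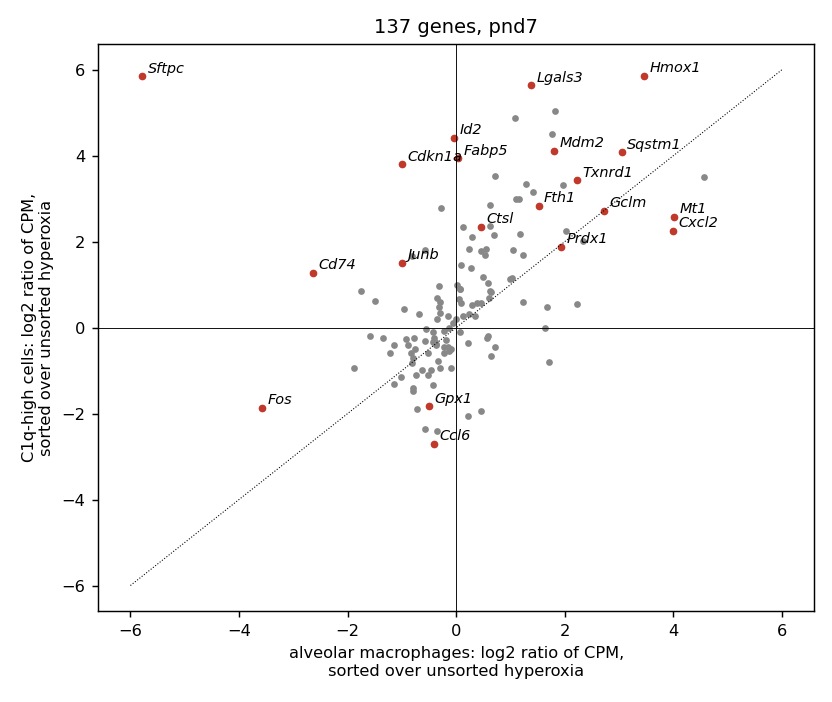
Each point is 1 of 137 listed genes with more than 3 counts in each class of both pnd7 hyperoxia libraries and at least 100 counts per class over both; the x axis is the log2 ratio of CPM, sorted over unsorted, in alveolar macrophages and the y axis the same in C1q-high cells, with a dotted line of equality. Hmox1, Sqstm1 and Txnrd1 lie high on both axes, and Cdkn1a and Id2 are high on the y axis and not on the x axis.

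Against C1q-high cells of unsorted lungs kept in air, 1301 genes were measured, of which 19.9% were higher and 10.1% lower by at least 2-fold, with a median of 0.13. This balance depended on the count minimum: higher genes made 66.2% of those past 2-fold here, 45.6% at a minimum of 30 counts and 27.3% at a minimum of 1 count. Exposure, sort, library and depth cannot be told apart here. The 12 highest were Gclc, Rgs1, Ifrd1, Gdf15, Mthfd2, Cxcr4, Hmox1, Mmp12, Gla, Ccl4, Gadd45g and Sftpd, the last a surfactant protein gene with 88 of its 109 member counts in the cell richest in Sftpc counts. Gla, a lysosomal α-galactosidase, was at 224 against 9.67 CPM, from 2 air counts, a log2 ratio of 4.53 (interval 2.65 to 7.59). Gclc, the catalytic subunit of glutathione synthesis, was at 326 against 4.84 CPM, from 1 air count, a log2 ratio of 6.08 (interval 3.58 to 11.39). In the antioxidant list 12 of 16 genes reached the minimum, 6 of them on the members' level alone, and 12 of the 16 genes with a count in either class had ratios above 0 and 3 below, with a median of 2.03. In the p53 target list 5 of 18 genes reached the minimum, 5 of them on the members' level alone, and 13 of the 17 genes with a count in either class had ratios above 0 and 3 below, with a median of 1.03. The identity list had 9 of 18 measured genes lower and 2 higher, and over the list 5 of the 23 genes with a count in either class had ratios above 0 and 18 below, with a median of -1.25. Cx3cr1 was at 44.5 against 1088 CPM (log2 ratio -4.61) and Maf at 57.7 against 1388 CPM (log2 ratio -4.59). The higher ones were Cd14 at 1525 against 305 CPM (log2 ratio 2.32) and Cd63, a tetraspanin of late endosomes, at 951 against 440.1 CPM (log2 ratio 1.11). In the air class 20 of 25 cells had at least 3 of the 7 macrophage genes and 10 had under 2000 UMIs, compared with 15 and 2 of the 16 unsorted hyperoxia cells and 52 and 5 of the 53 members. Keeping only cells with 3 of the 7 genes gave 252 genes higher and 137 lower. The fibroblast markers were also lower, at 14.8 CPM summed in members against 3226 CPM in the air class, where 82.2% of the counts of Eln, the elastin gene, were in 1 of the 25 cells. Cd74 was at 4433 CPM in the sorted library, 1841 CPM after hyperoxia and 1785 CPM in air at pnd7, and 22434 CPM after hyperoxia and 21621 CPM in air at pnd60, so both pnd60 libraries lay above all of pnd7. At pnd7, 1 cell held 75.2% of the unsorted hyperoxia counts and 1 cell 57.2% of the air counts of Cd74, and without these cells the levels were 498 and 798 CPM.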

How the data were processed

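Mouse lung cells were profiled with the 10x Genomics 3′ v3.1 chemistry in 5 libraries, 1 per condition. The authors deposited raw UMI counts per gene and barcode from Cell Ranger (matrix header version 3.1.0, build mm10 per the labels); Seurat 3.2.1 is named in the submitters' processing notes. The 42454 features include 2 mitochondrial rRNAs as the only mitochondrial features, and genes with a further copy, marked in the text, can lose counts. Here barcodes were filtered and classed by the stated rule, counts were summed per class and scaled to CPM, and log2 ratios carry exact binomial 95% intervals, with Poisson intervals for levels. A count of 0 was set at a floor of 3. Where the resulting ratio pointed towards the class with 0 counts, it was set to 0. The floor is a higher CPM in the class with fewer counts, so genes at 0 are not treated alike in the 2 classes. Genes with at least 100 counts over both classes were compared, and 2-fold was the limit. Some genes are not reported here. Members and gene lists were chosen with earlier results of these data known. Genes are named by 12 highest and 12 lowest ratios, the lists and the 15 most variable genes, and others after their values were seen. Doublets were called with Scrublet and removed only as an alternative; it called 0 of 2744 air and 1 of 1418 hyperoxia barcodes at pnd7 doublets, so it removed almost nothing there. Only the log2 ratio and its interval were tested on simulated data, with counts that carried counting noise alone. Cell classes, thinning, list medians and doublet calls were not tested in this way. Alternatives covered the C1q threshold, cell and gene filters, scaling, weighting and thinning to 2000 UMIs. Software was scanpy 1.11.5, scipy 1.17.1, matplotlib 3.10.9, pandas 2.3.3 and numpy 2.4.6 under Python 3.11.15.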

Additional observations from a re-analysis of the deposited data

Results flagged for a closer look

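Of the 76 sorted barcodes that the filter removed, 16 had at least 1000 CPM of C1qa, C1qb and C1qc, so C1q counts also appear in data outside the comparisons. The removed barcodes had a median of 906.5 UMIs, 66 of them had 700 or fewer genes, and 39 had 5% or more mitochondrial counts. At 1000 CPM a barcode of that depth reaches the threshold with 1 count.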

How the results depend on the processing

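Numbers of genes past 2-fold are given as higher and lower. The main counts were 532 and 1148 against the other sorted cells, 490 and 798 against sorted alveolar macrophages, 274 and 88 against unsorted hyperoxia and 259 and 132 against unsorted air. Thinning each cell to 2000 UMIs gave 95 and 231, 80 and 180, 42 and 11, and 50 and 6 in that order. A minimum of 30 counts gave 901 and 1771, 915 and 1369, 681 and 452, and 578 and 690. A minimum of 1 count gave 1719 and 1866, 1842 and 1564, 1102 and 1894, and 990 and 2633, since more or fewer genes could be compared; more genes were then lower than higher against unsorted air at both minimums and against unsorted hyperoxia at 1 count, and more were higher against sorted alveolar macrophages at 1 count. Against unsorted hyperoxia, 143 genes were lower with dividing cells kept, and 57 with each gene's leading cell in each class left out, an alternative chosen after the data were seen. The other counts, and the number of members (36 to 64), stayed within 1.5 times the main value.

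Surfactant genes changed direction among members with at least 5000 CPM of C1q. Against the other sorted cells Sftpa1 was at -7.62 and Sftpd at -3.52 on the log2 scale, against alveolar macrophages Sftpa1 at -2.25 and Sftpc at -2.64, against unsorted hyperoxia Sftpc at -2.18, Sftpa1 at -2.75 and Sftpd at -0.16, and against air Sftpa1 at -1.63 and Sftpc at -2.86. With leading cells left out, Sftpd was at -0.27 against other sorted cells, Ccl6 at 0.86 against unsorted hyperoxia and Cd5l at -0.36 against air. Without the members that carried alveolar genes, Cd5l was at -2.48 against unsorted hyperoxia, and against air Cd5l was at -3.95 and Marco at -4.54. With dividing cells kept, Cenpf was at 0.56 against other sorted cells, since the rule removes such cells, and Prg4 at -0.90 against air. With the mean CPM over cells, Ccl6 was at 0.48 against air. Except where a construction is named, the cause was not tested. No paired analysis was possible because no condition had more than 1 library. Depth limits rare transcripts: the 16 unsorted hyperoxia cells held 159685 counts, so 1183 genes reached 100 counts.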

Other observations

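Dividing cells were left out of the members by the rule, but 11 of the 72 dividing sorted cells also reached 1000 CPM of C1q. Keeping dividing cells gave 64 C1q-high cells. The summed level of C1qa was 291 CPM in all dividing cells and 3.81 CPM in sorted alveolar macrophages.

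The polarization markers that the study used were mixed in members. Of the M1 genes, Cd86 was at 331 against 21.4 CPM in members against other sorted cells, Tlr2 at 417 against 384 CPM and Tlr4 at 21.4 against 68.6 CPM. Of the M2 genes, Csf1r was at 631 against 89.2 CPM, Mrc1 at 686 against 541 CPM and Pparg at 29.7 against 64.5 CPM. Il6 and Cd163 had too few counts to compare. Among glycolytic genes Gapdh was at 893 against 1444 CPM and Ldha at 346 against 496 CPM, both within 2-fold. Interferon-stimulated genes had 4 of 6 measured members higher, of 20 listed, among them Bst2 at 232 against 71.2 CPM, and over that list 13 of the 20 genes with a count in either class had ratios above 0 and 3 below, with a median of 1.21. Against unsorted hyperoxia C1q-high cells 3 were measured, of which 1 was higher by at least 2-fold and 0 lower. Over that list 2 of the 18 genes with a count in either class had ratios above 0 and 14 below. Their median was -1.23, with 0 set at the floor of 3 counts. Of these 18 genes, 15 were under the minimum, where the floor weighs most. The summed level of the list was close, at 1111 CPM in members and 1171 CPM in the unsorted hyperoxia cells. Against unsorted air C1q-high cells 2 of the 18 genes with a count in either class had ratios above 0 and 15 below, with a median of -0.96. Here too 15 genes were under the minimum, and the summed level in the air cells was 1079 CPM.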
